A study of Mus musculus with 12 samples.

Results

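Small nucleolar RNA (snoRNA) genes were followed across 12 mouse livers. They were taken as every probe set (probe) whose only gene symbol in the array annotation starts with Snord, for the C/D box class, or Snora, for the H/ACA box class, and where a gene had several probes the brightest on average stood for it. This gave 51 genes on 15 chromosomes, 31 of the C/D and 20 of the H/ACA box class, out of 19938 genes on the array. Symbols starting with Scarna, the small Cajal body RNAs, were not members.

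Each of 12 arrays held liver RNA of 1 male C57BL/6J mouse. The 4 groups of 3 were first-generation (G1) mTERT KO mice, which lack the reverse transcriptase of telomerase, their mTERT WT littermates, first-generation mTR KO mice, which lack the telomerase RNA, and their mTR WT littermates. Ages are stated as matched but are not given, whole liver was homogenized with all its cell types, and first-generation mice have had no earlier generation without telomerase. Sample titles carry a number from 1 to 3, read here as the litter within a line, so that 6 litters of 1 KO and 1 WT animal were compared. The values are log2 intensities, and the groups are compared on that scale throughout.

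C/D box snoRNAs are bound by fibrillarin (Fbl), Nop56, Nop58 and Snu13 and guide ribose methylation of ribosomal RNA, while H/ACA box snoRNAs are bound by dyskerin (Dkc1), Gar1, Nhp2 and Nop10 and guide pseudouridylation. A few of each class act in the cleavage of the ribosomal RNA precursor instead. In mammals most are cut out of introns of host genes, many of which encode ribosomal proteins or are non-coding with the snoRNA as their known product. Telomerase RNA carries an H/ACA domain and is bound by the same dyskerin complex.

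In RefSeq (assembly GRCm38.p6) 50 of the 51 members lay within the span of another gene, and Snord118, a transcription unit of its own, did not. The annotated length ran between 45 and 148 bases with a median of 69.5 for the tested C/D box genes, and between 61 and 205 bases with a median of 128 for the tested H/ACA box genes. The strand of members and spanning genes was not compared. Whether a member's probe read the cut-out snoRNA or a longer transcript that holds it was not tested. Of the genes that span a member, 23 had a probe of their own, 10 of them with a ribosomal protein name. Genes of the ribosomal protein and snoRNA host kind are known to start transcription in a run of pyrimidines, so the start of 3 non-coding hosts is shown, each 30 bases before and 30 from the RefSeq start on the plus strand. The pyrimidine run is in capitals.
Gas5, host of Snord47, chr1:161035136-161035195: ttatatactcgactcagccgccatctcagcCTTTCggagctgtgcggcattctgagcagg
Snhg1, host of Snord22, chr19:8723457-8723516: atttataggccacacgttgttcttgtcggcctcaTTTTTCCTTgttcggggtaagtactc
Snhg12, host of Snora16a and Snora44, chr4:132308648-132308707: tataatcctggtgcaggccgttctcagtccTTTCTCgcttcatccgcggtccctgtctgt
The search asked for at least 5 letters in a row that are each C or T, beginning within the first 5 transcribed bases, on the transcribed strand only. Such a run was found at 14 of 32 annotated starts of genes that span a member (43.8%), against 4817 of 32851 starts of all genes in the table (14.7%). The match is a description of these letters.

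Arrays stood apart in some respects before any comparison of snoRNAs. Array medians lay between 4.37 and 4.43. Probes of 1027 olfactory receptor genes, which are silent in liver, gave the background level, 4.34, as the average over arrays of their 95th percentile. Mean levels of 11 hepatocyte markers lay between 12.67 and 12.81 on all arrays. Of the pancreas acinar markers, 10 had a probe, and their mean was 9.98, 7.56 and 11.43 on mTERT KO 1, mTERT WT 1 and mTR KO 1 but also 9.07 on mTERT WT 2 and 7.02 on mTR WT 2, against at most 3.98 on the other 7 arrays, which include mTR WT 1. The mean of 12 skeletal muscle markers was 6.90 on mTERT WT 1 and 6.37 on mTERT WT 3, and at most 4.54 elsewhere. The Tert probe read 3.95, 4.07 and 4.15 in mTERT KO, against 4.13, 4.78 and 4.83 in mTERT WT, so that the groups overlapped. The Terc probe was above the background level on 1 of 12 arrays and checks no label. Whether the probes lie in the deleted parts is not given in the sources used here.

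The largest difference among the snoRNA genes ran along the title number. The 4 arrays numbered 1 come from 2 litters, 1 in each line, if the number is the litter. On them 27 of 30 tested C/D box genes were higher than on the 8 arrays numbered 2 and 3, and none was lower. Of the tested H/ACA box genes, 18 of 19 were higher and none was lower. Of these C/D box genes, Snord37, Snord38a and Snord118 averaged below the filter on dim probes, a log2 mean of 3.90 over the 12 arrays, on numbers 2 and 3, passed it only through the arrays numbered 1 and so had to differ, while 24 of the other 27 were called. With no filter, which tests every member, 28 of 31 C/D and 19 of 20 H/ACA box genes were higher. The share over all probes was not worked out for that fit. With the filter, the background for a higher call was 17.1% of 20197 probes, and 38.2% were called in either direction. Calls were made at a limma adjusted p under 0.05, two-sided, with 4 group means and a term for number 1 over 12 arrays. The median log2 difference, number 1 minus numbers 2 and 3, was 1.46 for C/D box genes, a median of 2.75-fold, and 0.89 or 1.85-fold for H/ACA box genes, beside −0.02 over all probes tested. Groups of arrays did not overlap for 27 C/D and 16 H/ACA box genes, against 10.4% of all probes higher without overlap. Nothing in the labels says what else the arrays numbered 1 share, so litter, handling and hybridization cannot be told apart, and the p-values measure the spread between these 12 animals only.

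**Figure D1:**
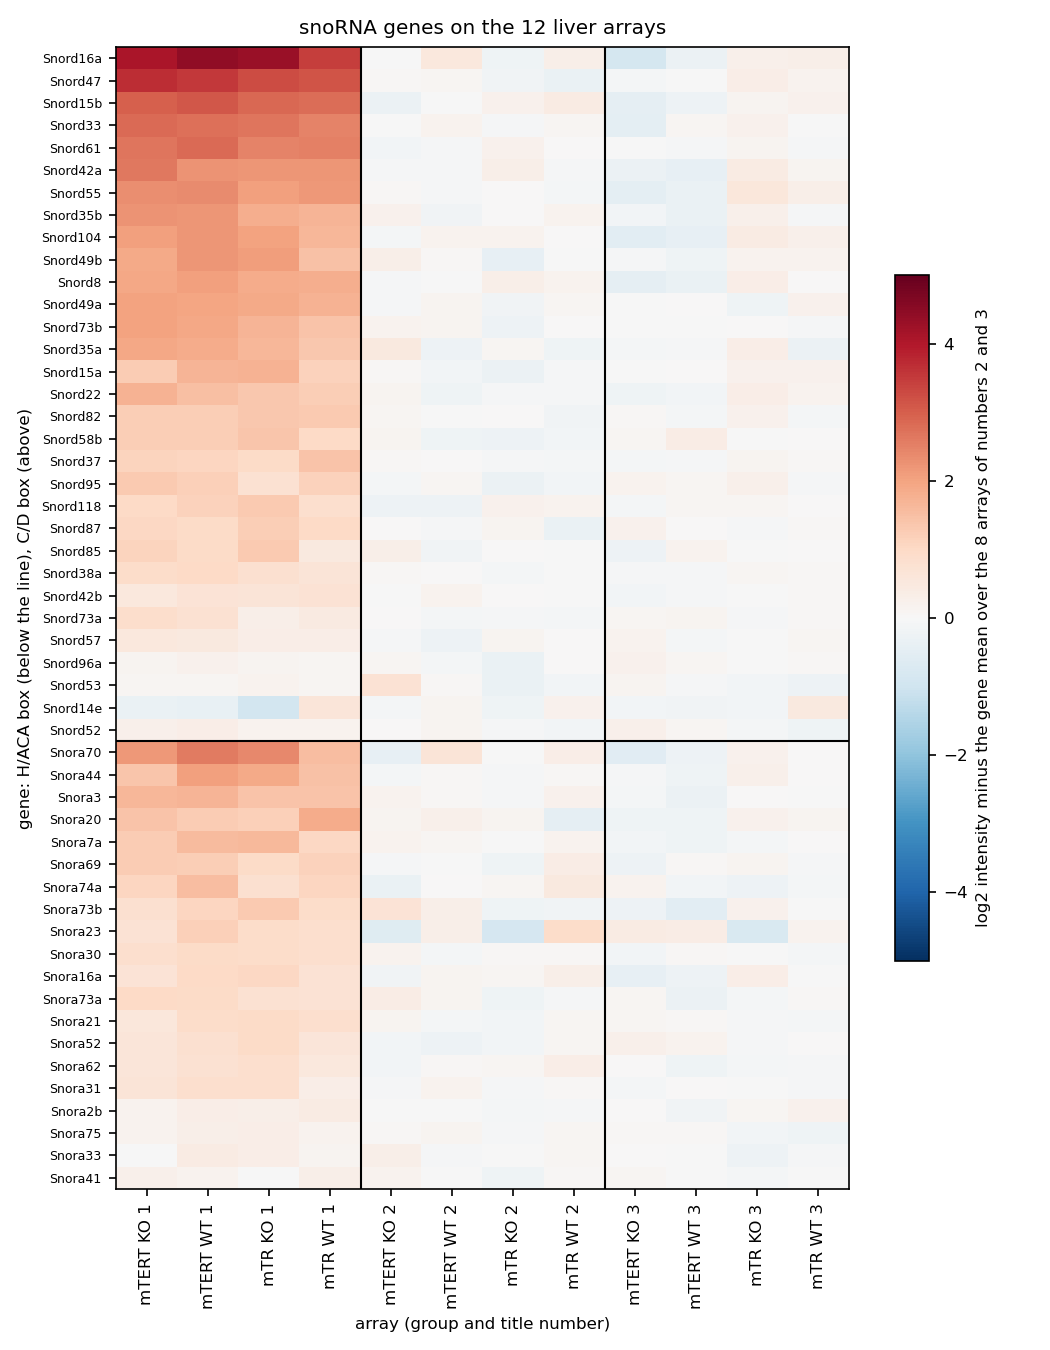
Each cell is the log2 intensity of 1 snoRNA gene (rows, C/D box above and H/ACA box below the line) on 1 array (columns, numbers 1, 2 and 3 from left to right) minus that gene's mean over the 8 arrays of numbers 2 and 3. The 4 columns of number 1 are red in nearly all rows, led by Snord16a and Snord47, and the other 8 columns are pale.

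The pattern was present on every array numbered 1. The mean over the 31 C/D box genes lay between 6.73 and 6.97 on the arrays numbered 1, against 5.24 to 5.49 on the other 8. For the 20 H/ACA box genes it lay between 5.99 and 6.22, against 5.05 to 5.30. Each of the 45 called genes had a positive difference in all 4 groups, which for Snord37, Snord38a and Snord118 is a description only. The median difference of C/D box genes was 1.51 in mTERT KO, 1.71 in mTERT WT, 1.47 in mTR KO and 1.41 in mTR WT, and that of H/ACA box genes was 0.83, 1.02, 0.97 and 0.84 in the same groups. On mTR WT 1 the pancreas marker mean was 3.85, the muscle marker mean 4.26 and the C/D box mean 6.73. With the pancreas mean as a covariate, 27 C/D and 16 H/ACA box genes were called. The share over all probes was not worked out for this fit.

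C/D box guides of ribosomal RNA methylation held the widest separations. Snord61, known in human as a guide for 18S ribosomal RNA, read 7.35 in mTERT KO, 7.50 in mTERT WT, 7.16 in mTR KO and 7.21 in mTR WT on number 1, against a lowest of 4.56, a median of 4.63 and a highest of 4.89 on the other 8 arrays. All 4 arrays numbered 1 were higher than every other array, a log2 difference of 2.63 (SE 0.08, limma adjusted p = 3.76e-09). Snord47, a 28S guide in human that lies in Gas5, read 9.04, 8.86, 8.60 and 8.50 on number 1 in the same order of groups, against 4.99, 5.35 and 5.65 as lowest, median and highest of the others. The log2 difference was 3.42 (SE 0.12), a 10.7-fold gap with no overlap. Snord33, an 18S guide that lies in Rpl13a and is linked to lipotoxic stress in cultured cells, had 9.73, 9.66, 9.61 and 9.39 on number 1, against 6.41, 6.95 and 7.13. Its log2 difference was 2.68 (SE 0.11), again with no overlap.

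Snord15b, a 28S guide in human, had 10.40, 10.53, 10.28 and 10.22 on number 1, against a lowest of 6.97, a median of 7.47 and a highest of 7.85. The log2 difference was 2.94 (SE 0.13), and the arrays did not overlap. For Snord49a, another 28S guide, the 4 values were 6.53, 6.47, 6.38 and 6.22, against 4.28, 4.51 and 4.72, a difference of 1.90 (SE 0.08). For Snord73b they were 6.67, 6.59, 6.37 and 6.07, against 4.42, 4.66 and 4.84, a difference of 1.76 (SE 0.09). Both genes separated the arrays numbered 1 fully, with limma adjusted p = 3.00e-08 and 1.12e-07. The widest gap of all, chosen after its values were seen, was that of Snord16a, a guide for 18S ribosomal RNA in human, with 10.24, 10.57, 10.47 and 9.59 on number 1, against 5.27, 6.25 and 6.66. Its log2 difference was 4.08 (SE 0.23), or 16.9-fold.

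Among H/ACA box genes the differences were smaller. Snora3, a 28S pseudouridylation guide in human, had 6.65 and 6.71 on number 1 of mTERT KO and WT and 6.42 and 6.43 on number 1 of mTR KO and WT, against a lowest of 4.70, a median of 5.0 and a highest of 5.23 on the others. The log2 difference was 1.55 (SE 0.10, limma adjusted p = 8.23e-07). Snora70, an 18S guide in human, had 7.53, 7.98, 7.79 and 6.94, against 4.81, 5.38 and 6.01, and its 2.18 (SE 0.19) was the largest difference of the class. Snora7a, a 28S guide, differed by 1.38 (SE 0.11) and Snora30 by 0.89 (SE 0.07), both without overlap. Only 1 tested H/ACA box gene had a difference over 2 on the log2 scale, against 8 C/D box genes, and 8 H/ACA box genes had one over 1, against 22 C/D box genes. The 22 include Snord37 and Snord118, which passed the filter only through the arrays numbered 1. A difference between the classes was not tested. Within each class the annotated length bore little relation to the difference, with a Spearman correlation of 0.16 over 30 C/D box genes and of 0.16 over 19 H/ACA box genes, which share the same 12 arrays.

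**Figure D2:**
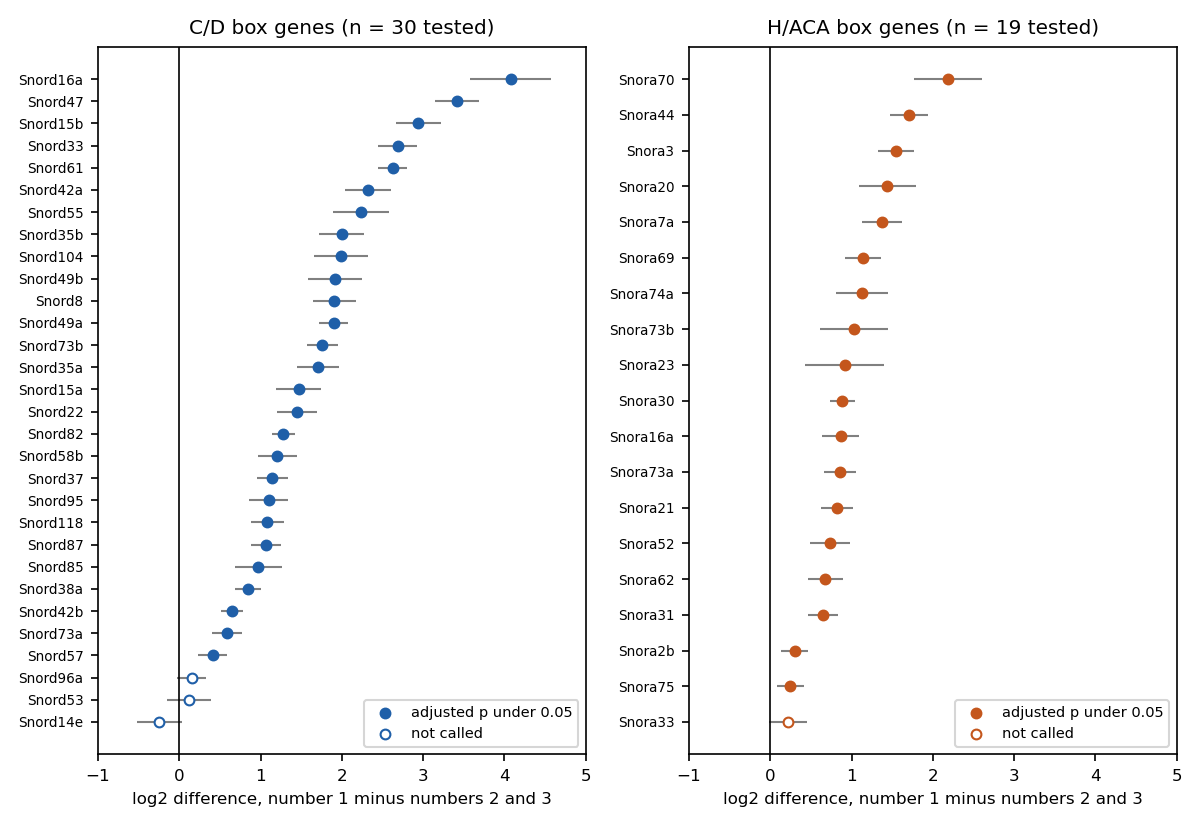
Each point is the log2 difference of 1 tested snoRNA gene, arrays numbered 1 minus arrays numbered 2 and 3, with its 95% interval, for C/D box genes at left and H/ACA box genes at right. Filled points were called and open points were not: Snord14e, Snord53 and Snord96a at left, Snora33 at right. Snord37, Snord38a and Snord118 are filled, but they passed the filter only through the arrays numbered 1, so their calls are no test.

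Some members differed little or not at all by this test. Snord53 read 4.49, 4.50, 4.58 and 4.50 on number 1, against 4.09, 4.32 and 5.11 as lowest, median and highest of the others, a log2 difference of 0.11 (SE 0.12, limma adjusted p = 0.492). The groups of arrays overlapped, and both means were close to the background level. Snord57, an 18S guide in human within Nop56, had 8.91, 8.86, 8.72 and 8.71, against 8.12, 8.38 and 8.58, a called but small difference of 0.41 (SE 0.08). Snora2b differed by 0.30 (SE 0.07) and Snora23 by 0.92 (SE 0.22), both called and both with overlap. Snora23 spread widely on numbers 2 and 3, between 6.98 and 8.73. Not called were also Snord96a, at 0.15 (SE 0.08), and Snora33, at 0.22 (SE 0.11). The calls of Snora2b, Snora23, Snora73b, Snora75 and Snord57 were lost in 1 of the lines alone or in both. With the pancreas mean as a covariate those of Snora23, at 0.60 (SE 0.24, limma adjusted p = 0.0753), and of Snora75, at 0.18 (SE 0.09, limma adjusted p = 0.163), were lost.

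Levels near the background limit what the dimmest members can show. Snord52 and Snora41 were below the background level on all 12 arrays and fell under the filter on dim probes, so they were not tested. Snord52 read 4.04, 4.14, 3.97 and 3.96 on number 1, against 3.57 to 4.06, and Snora41 read 3.93, 3.82, 3.63 and 3.95, against 3.44 to 3.85. Of the tested genes, 7 C/D and 5 H/ACA box genes had a mean below background on numbers 2 and 3, so that the lower side of their differences is only a bound. With both means above background, 21 of 23 C/D box genes were called, with a median of 1.90. So were 14 of 14 H/ACA box genes, with a median of 0.97. The share among all probes with both means above background was not worked out.

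Members with a role in cleavage or processing of the ribosomal RNA precursor did not move as one. Snord118 (U8), which acts in maturation of 28S and 5.8S ribosomal RNA, read 4.69, 4.88, 5.04 and 4.56 on number 1, against 3.45, 3.77 and 3.93, and was above background on the arrays numbered 1 only. As it passed the filter only through those arrays, its difference, 1.08, is a description with no test. Snord22 (U22), needed for 18S ribosomal RNA, read 9.01, 8.78, 8.63 and 8.53, against 7.08, 7.24 and 7.62, a difference of 1.45 (SE 0.11). Snora73a and Snora73b (U17), which act in 18S processing and are near-identical copies whose signals may not be separable, differed by 0.86 (SE 0.09) and 1.03 (SE 0.19). Snord22, Snora73a and Snora73b rose without overlap. Snord14e, 1 of the U14 copies that act in 18S processing, did not: it read 7.83, 7.80, 7.25 and 8.75 on number 1, against 7.94, 8.03 and 8.63, a difference of −0.25 (SE 0.13, limma adjusted p = 0.141). When each array was left out in turn, Snord14e was called only without mTR WT 1, its highest array, at −0.42 (limma adjusted p = 0.0166). Leaving out the highest array lowers the number 1 side by itself, so no decrease is read from that call.

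The genes that hold the snoRNAs differed in both directions. Of 23 such genes, each read from 1 probe, 8 (34.8%) were higher and 7 lower on number 1. Over all probes 17.1% were higher and 21.1% lower. The median log2 difference of these genes was −0.07, with a range of −0.83 to 0.61. In 25 of 26 tested pairs the member's difference lay above that of the gene that spans it. Across these pairs the differences of member and spanning gene had a Pearson correlation of 0.15 and a Spearman correlation of 0.08, with all values from the same 12 arrays. Of the 23 called members in pairs, 10 lay in a gene called higher, 7 in a gene called lower and 6 in a gene not called. Snord37 in Eef2 is among the 25, the 23 and the 7. It passed the filter only through the arrays numbered 1 and so had to differ.

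**Figure D3:**
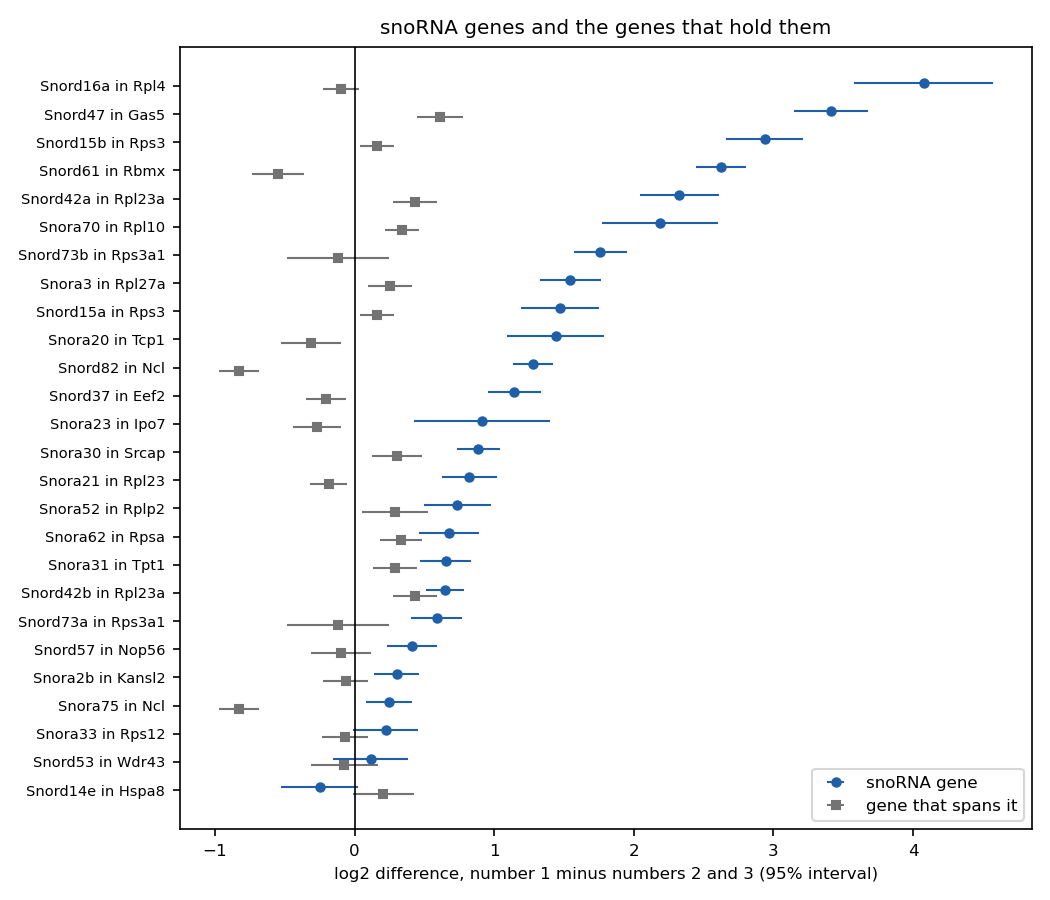
For each of 26 tested pairs the circle is the log2 difference of the snoRNA gene and the square that of the gene that spans it, number 1 minus numbers 2 and 3, with 95% intervals. All circles but that of Snord14e lie to the right of their square, while squares lie on both sides of 0. Snord37 passed the filter only through the arrays numbered 1, so its circle is no test.

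Non-coding hosts and hosts with ribosomal protein names differed pair by pair. Gas5, a growth arrest transcript that holds Snord47, read 9.62, 9.57, 9.60 and 9.46 on number 1 of the 4 groups, against 8.78, 8.94 and 9.14, a difference of 0.61 (SE 0.07). It has 4 probes, whose differences were 1.49, 0.61, 0.28 and 0.02, so the host's own value depends on the probe. Rps3, a protein of the small ribosomal subunit, holds Snord15a and Snord15b and differed by 0.16 (SE 0.06), while Snord15a differed by 1.47 (SE 0.13) and Snord15b by 2.94. Rpl4, which holds Snord16a, read 10.31, 10.38, 10.24 and 10.40 on number 1, against 10.33 to 10.57 on the others, and its difference was −0.10 (SE 0.06, limma adjusted p = 0.199). Rpl23a, which holds Snord42a and Snord42b, differed by 0.43 (SE 0.07), against 2.33 and 0.64 for these snoRNA genes. Rbmx, an RNA-binding protein whose gene holds Snord61, was lower, at −0.55 (SE 0.09).

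Ncl, the gene of nucleolin, was lower while a snoRNA gene within it was higher. Ncl read 7.82, 7.75, 7.88 and 7.91 on number 1, while the other arrays read 8.54 or more, a difference of −0.83 (SE 0.07). Snord82 within it read 5.45, 5.45, 5.54 and 5.51, against 4.03, 4.21 and 4.42, a difference of 1.28 (SE 0.07), and Snora75 differed by 0.25 (SE 0.08). The call of Snora75 was lost without mTERT WT 1, mTR KO 1 or mTR WT 1, where its difference lay between 0.18 and 0.26 with limma adjusted p up to 0.126. It was also lost in the mTERT line alone, at 0.16 (limma adjusted p = 0.277), in the mTR line alone, at 0.34 (limma adjusted p = 0.0706), and for number 1 against number 2 alone, at 0.19 (limma adjusted p = 0.126). Snord22 lies in Snhg1, Snord35a in Rpl13a, and Snord95 and Snord96a in Rack1, genes with no probe of their own here. Snord35a differed by 1.71 (SE 0.12) and Snord95 by 1.10 (SE 0.11). In Snhg12, also without one, the differences were 1.70 (SE 0.11) for Snora44 and 0.87 (SE 0.10) for Snora16a.

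Of 17 listed genes for proteins of the snoRNA particles and their assembly, 4 (23.5%) were higher and 6 lower on number 1, beside 17.1% higher and 21.1% lower over all probes. Snu13, the protein that binds the kink-turn of C/D box RNAs, read 9.21, 9.34, 9.29 and 9.25 on number 1, while the other arrays lay between 8.43 and 8.58, a difference of 0.74 (SE 0.06). Nop10 and Nhp2 of the H/ACA particle differed by 0.61 (SE 0.07) and 0.37 (SE 0.06), and the chaperone Nolc1 by 0.35 (SE 0.11). Dkc1, the pseudouridine synthase, read 5.97, 6.02, 6.02 and 6.16 on number 1, while the others lay between 6.66 and 7.04, a difference of −0.78 (SE 0.08). Nop58 and the assembly factors Nufip1, Naf1, Ruvbl1 and Shq1 were lower, between −0.43 and −0.31. The methyltransferase Fbl, Nop56 and Gar1 were not called, at 0.18, −0.10 and −0.10. Of 12 genes of RNA polymerase I transcription, 2 (16.7%) were higher, close to the share over all probes, and 4 were lower.

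Other short RNA genes were set beside the snoRNA genes, with 17.1% higher and 21.1% lower over all probes as the background for each count. The scaRNA genes, which guide modification of spliceosomal RNAs, were higher in 2 of 2 tested, and spliceosomal RNA genes in 2 of 3. MicroRNA genes were higher in 54 and lower in 12 of 153 tested, with a median of 0.16, ribosomal protein genes in 21 and 11 of 62, with a median of 0.04, and replication-dependent histone genes in 5 and 3 of 26, with a median of 0.02. Among 5 tested Snhg genes, 2 were higher. The share of snoRNA genes called higher was 91.8%, against 35.3% of microRNA genes, 33.9% of ribosomal protein genes and, close to the background, 19.2% of histone genes. Without the 3 snoRNA genes that passed the filter only through number 1, 42 of 46 were called. Such genes were not taken out of the other lists, so the shares of those lists may hold genes that had to be higher. The lists differ in level, which limits this comparison. The mean over arrays was above the background level for 42 of 51 snoRNA genes but for 79 of 291 microRNA genes. On the arrays numbered 2 and 3 the median over these 291 genes lay between 3.87 and 3.94, close to the filter of 3.90. The difference between these lists was not tested.

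In the genotype comparisons no snoRNA gene was called. For mTERT KO against mTERT WT, 0 of 30 C/D and 0 of 19 H/ACA box genes passed a limma adjusted p of 0.05, where the background was 0% of probes. At an unadjusted p under 0.05 there were 0 of 49 members, beside 1.4% of all probes. The median log2 difference, KO minus WT, was 0.01 for C/D box genes, with a range of −0.49 to 0.27, and −0.04 for H/ACA box genes, with a range of −0.61 to 0.23. For mTR KO against mTR WT the counts were again 0 and 0, with a background of 0%, and 1 member had an unadjusted p under 0.05, beside 0.965% of probes. The medians were 0.09, with a range of −0.84 to 0.41, for C/D box genes and 0.02, with a range of −0.87 to 0.25, for H/ACA box genes.

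These comparisons were wide, since each group holds 1 array numbered 1. The median SE was 0.60 for C/D and 0.37 for H/ACA box genes, and the 95% interval of the KO difference lay within 2-fold either way for 16 of 49 members in each line. With the litter as a block the median SE was 0.11 for C/D and 0.12 for H/ACA box genes, and again no member was called in any comparison that allows this fit. At an unadjusted p under 0.05 with that block there were 2 C/D and 3 H/ACA box genes in the mTERT line, beside 5.13% of all probes, and 3 and 1 in the mTR line, beside 4.21%. For the average of both KO effects there were 5 and 2, beside 3.16%, with 0 members and 0% of probes called after adjustment. The interval then lay within 2-fold for 30 C/D and 17 H/ACA box genes in the mTERT line, and for 29 and 18 in the mTR line. With that block the smallest p in the mTERT line was that of Snora70, at −0.61 (SE 0.20, limma adjusted p = 0.929). Each KO array was also set beside the WT array of its line and number, a pair read as littermates. The KO lay above for 15, 18 and 11 of 30 C/D box genes in mTERT pairs 1, 2 and 3. In the mTR pairs it did so for 22, 15 and 19. For the 19 H/ACA box genes the counts were 3, 8 and 13 in mTERT pairs and 14, 1 and 11 in mTR pairs. Over all probes tested the median KO minus WT of a pair lay between −0.03 and 0.02. Each pair is 1 KO and 1 WT array, and its genes share those arrays, so the counts are a description and were not tested.

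**Figure D4:**
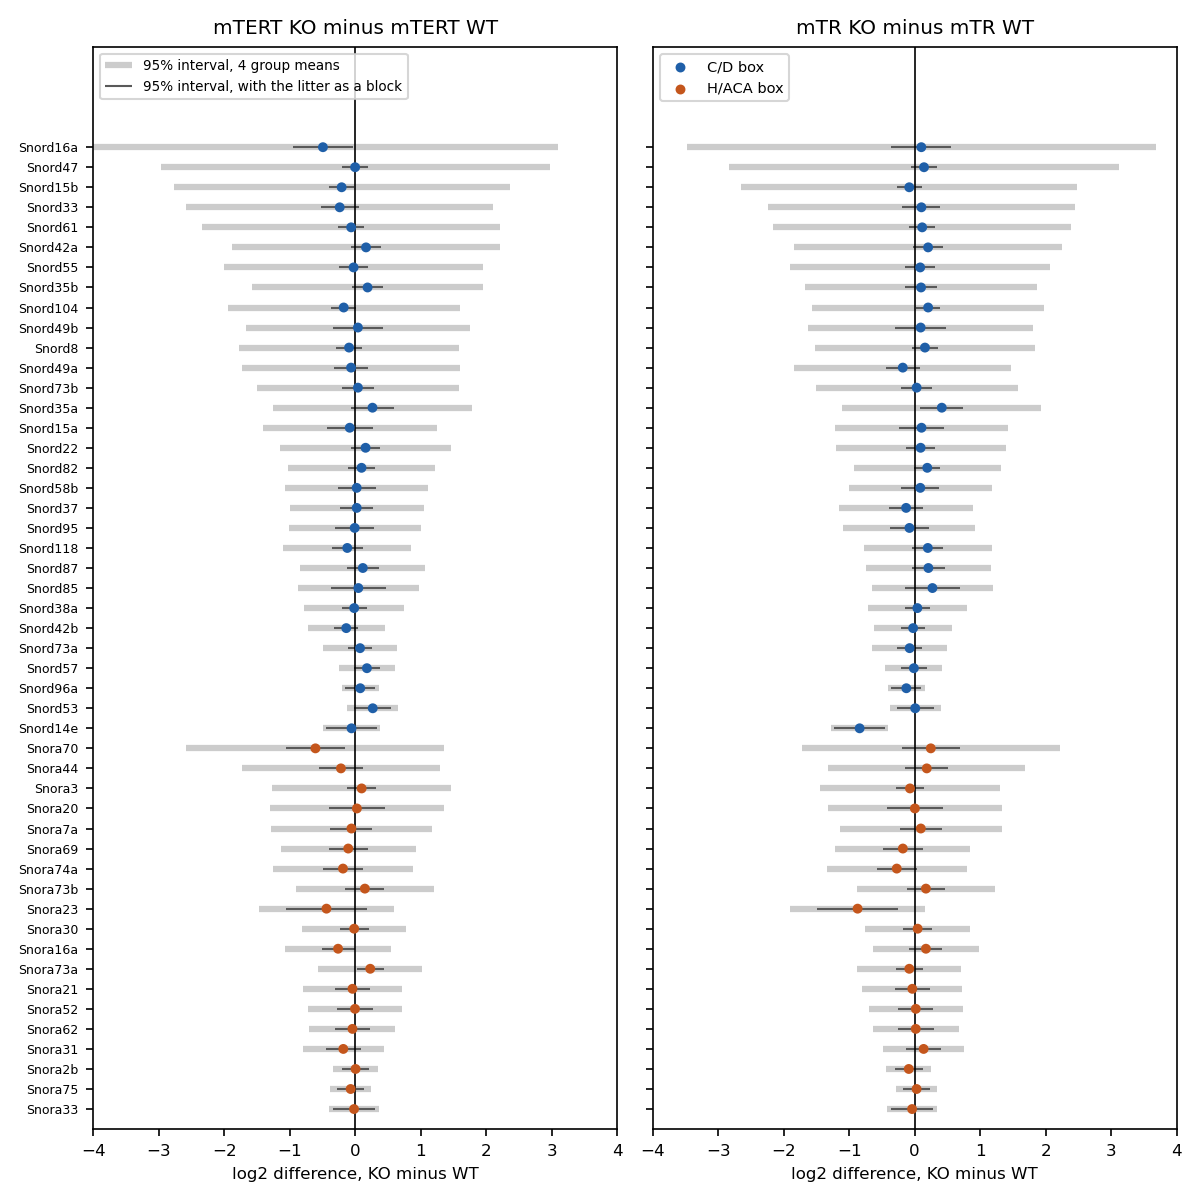
Points are log2 differences, KO minus WT, of the 49 tested snoRNA genes in the mTERT line at left and the mTR line at right; wide grey bars are 95% intervals of the fit with 4 group means and thin dark bars those with the litter as a block. Thin bars of most genes cross or come near 0, and Snord14e in the mTR line lies farthest from it relative to its bar.

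Snord14e was the only tested member whose groups did not overlap in a KO comparison, beside 4.33% of probes for mTERT and 4.48% for mTR. It read 7.25, 7.94 and 8.03 in mTR KO, against 8.75, 8.35 and 8.63 in mTR WT. All 3 mTR KO arrays were lower than all 3 mTR WT arrays, as were 2.64% of all probes. The difference was −0.84 (SE 0.20, 95% interval −1.28 to −0.40), with a limma adjusted p of 1.00 and the smallest unadjusted p of the members. In mTERT KO it read 7.83, 8.04 and 8.01, against 7.80, 8.28 and 7.97 in mTERT WT, which overlapped, a difference of −0.05 (SE 0.20). The difference between the 2 KO effects, mTR minus mTERT, was −0.79 (SE 0.28, limma adjusted p = 1.00). Without the 4 arrays numbered 1 the mTR difference was −0.51 (adjusted p = 1.00), so mTR KO 1 and mTR WT 1, the lowest and the highest array, carry part of its size.

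The mTR WT arrays were also the high ones between lines. Snord14e in mTR WT did not overlap with mTERT WT, a difference of 0.56 (SE 0.20, limma adjusted p = 1.00), and 3.61% of probes were higher without overlap. Against mTERT KO, mTR KO differed by −0.22 (SE 0.20), with overlap. Hspa8, the heat shock cognate gene that holds it, read 12.06, 12.16 and 11.95 in mTR KO, against 12.10, 12.13 and 12.06 in mTR WT, a difference of −0.04 (SE 0.16). A probe annotated to Snord14c, Snord14d and Hspa8 together, which is no member, read 9.86, 9.44 and 9.36 in mTR KO, against 10.51, 9.64 and 9.85 in mTR WT, a difference of −0.45 (SE 0.28, limma adjusted p = 1.00) with overlap.

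**Figure D5:**
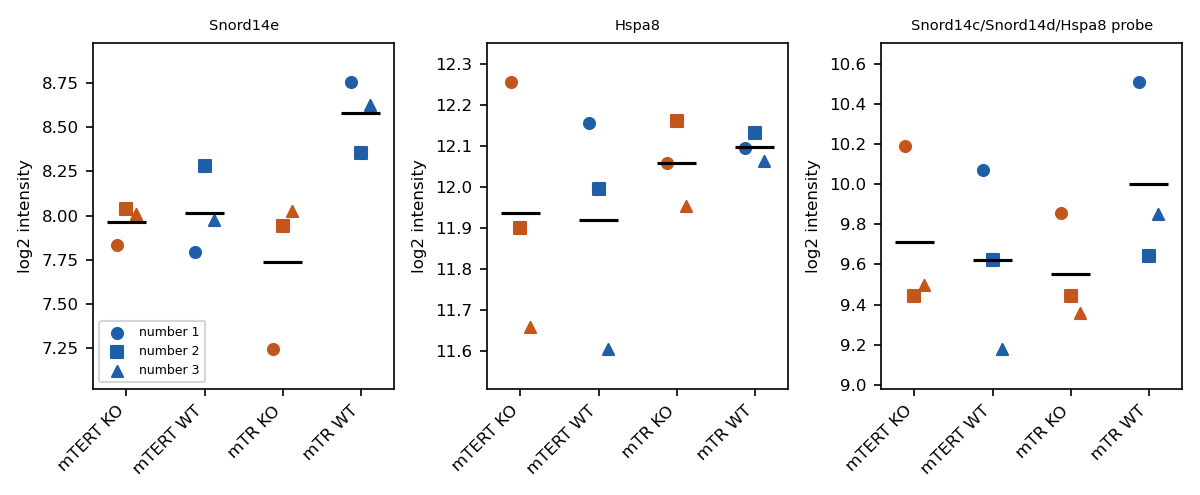
Log2 intensity by array for Snord14e (left), Hspa8 (middle) and a probe shared by Snord14c, Snord14d and Hspa8 (right), in KO and WT arrays of the mTERT line and then of the mTR line; marker shapes are the title numbers and black bars the means of 3. The 3 mTR WT points of Snord14e lie above all mTR KO points, while the Hspa8 groups overlap.

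Between lines and across both lines no snoRNA gene was called either, with a background of 0% of probes in each comparison. In mTR WT against mTERT WT the median was −0.05 for C/D and 0.00 for H/ACA box genes, and in mTR KO against mTERT KO it was −0.01 and 0.01. The average of the 2 KO effects had medians of 0.03 and −0.02. The size of the number difference was compared between lines too. It was called different for 0 members, with a background of 0.0248% of probes, but 9 of 30 C/D and 1 of 19 H/ACA box genes had an unadjusted p under 0.05, beside 5.14% of probes, and all 10 were smaller in the mTR line. The smallest p was that of Snord15b, whose difference was 2.68 and 2.48 in mTR KO and WT animals, against 3.36 and 3.24 in mTERT KO and WT animals, an interaction of −0.72 (SE 0.15, limma adjusted p = 0.509). Between KO and WT animals the number difference was called different for 0 members, with a background of 0.00495%.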

How the data were processed

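The liver RNA of each of 12 mice went onto its own one-colour Affymetrix array. Per the labels' protocols it was extracted with Trizol, cleaned with RNeasy, amplified once with T7 promoter random primers and labelled with biotin. The deposited values were read as log2 from their range of 2.62 to 13.83; base and normalization are not given in the sources used here. GCOS 1.4, Affymetrix Expression Console and PLIER are named in the submitters' processing notes, without role or order. The array annotation gave 1 symbol for 21789 of 28853 probes, several for 1621 and none for 5443, and 21698 were matched to RefSeq (GRCm38.p6) by Entrez identifier. Probes with several symbols were not members.

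Probes averaging 3.90 or more, the 30th percentile of the means, were tested with limma 3.58.1 under R 4.3.3: lmFit on 4 group means over 12 arrays, with a term for number 1 where that was compared, and eBayes, two-sided, with Benjamini-Hochberg adjustment over 20197 probes at 0.05. The fit was tested on simulated data, whose noise had the spread left after the term for number 1. The genotype fit has no such term, so the simulation leaves out the number difference that this fit meets in the data. Intervals are 95%. The precision is limited by the number of arrays.

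The title number was used as litter because the series text describes sets of littermates. Deviations from the group means of KO and WT arrays with equal numbers correlated by 0.692, 0.135 and 0.623 in the mTERT line. In the mTR line the values were 0.458, 0.151 and 0.552. KO 2 correlated more with WT 3, by 0.416 (mTERT) and 0.464 (mTR). A shift shared by the arrays numbered 1 raises equal-number correlations whether or not the animals are littermates. These correlations therefore cannot show that the number is the litter. The members, gene lists and tests were chosen with earlier results of these data known. Genes named are those with the smallest and largest p of each class among members above background, members without overlap between genotypes, processing RNAs, members of a fixed set of hosts, particle proteins and Tert and Terc; others are marked. Alternatives were other normalizations and filters, eBayes settings, array weights, all probes of a gene, the litter or number as a block, a pancreas covariate, each line alone, numbers 1 and 2 or 1 and 3 alone, 2 groups alone, no number 1 arrays, and leaving out each array.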

Additional observations from a re-analysis of the deposited data

Results flagged for a closer look

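Within the 4 arrays numbered 1, or within the 8 numbered 2 and 3, a gap of 1 array to the next that is large for the whole range was searched for in 29 named genes; chance alone gives such a gap in about 1 of 20 sets. For Snord33, mTERT KO 3 read 6.41, the lowest of 8, with the next array at 6.86. For Snord53, mTERT KO 2 read 5.11, the highest of 8, with the next at 4.53, and mTR KO 1 read 4.58, the highest of the 4 numbered 1, with the next at 4.50.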

How the results depend on the processing

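All 18 counts of called genes stayed on their side or within 1.5 times their value under every alternative run. For number 1 against 2 and 3 the C/D box count lay between 27 and 28 when 1 array was left out and between 22 and 28 otherwise; the H/ACA box count lay between 17 and 19 and between 14 and 19, lowest in the mTERT line alone. The share over all probes was not worked out under the alternatives for number 1 against 2 and 3. Every count of the genotype and line comparisons was 0. With the litter as a replicate block 0 members were called in each KO comparison, and the block changed no call. A litter block could not be fitted between lines, where litters lie within a line, and the number over both lines was used. As a random block the litters had a correlation of 0.0938. Among single genes, Snord53 turned to −0.12 in the mTERT line alone and was called in the mTR line alone, at 0.35. Snord14e in mTERT KO against mTERT WT lay between −0.16 and 0.076 when 1 array was left out, turning to 0.0088 without mTERT KO 1 and to 0.076 without mTERT WT 2. The causes were not tested. For single genes 14 calls were lost, all in the number comparison, for Snora75, Snora2b, Snora23, Snora73b or Snord57.

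The groups of 3 and the share of snoRNA genes near background limit what can be seen: 7 C/D and 5 H/ACA box genes averaged below it on numbers 2 and 3.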

Other observations

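Probes whose annotation names a snoRNA gene together with another gene numbered 41 and were not members. Of these, 24 named Snord116, an imprinted cluster known from brain. Their means lay between 4.20 and 4.52 on the arrays numbered 1, against 3.84 to 4.18 on numbers 2 and 3, close to the background level of 4.34. All 24 were called higher on number 1, by 0.27 to 0.38, beside 17.1% of all probes, but they held only 7 distinct sets of values. The lowest mean on numbers 2 and 3 lay under the filter of 3.90, so a probe there passed only through number 1. Among the other 17 probes, 16 were tested and 11 were higher on number 1. The probe of Snord34 and Rpl13a averaged 7.99 on number 1, against 5.40 on the others, a log2 difference of 2.60 (SE 0.12). That of Snord32a and Rpl13a averaged 9.15, against 7.51. The probes of Snord1c and Snord1b averaged 6.94, against 4.55, and that of Rpl12 and Snora65 6.10, against 4.32. Snord14a with Rps13 was not called, at 0.23 (SE 0.12), while the probe of Snord14c, Snord14d and Hspa8 was higher by 0.65 (SE 0.09). The probes of Snora19 with Mir3084-1 and Mir3084-2 and of Snora43 with Snhg7 were not called, at −0.08 and −0.10.

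Members with a second probe of their own numbered 5. The second probes of Snora3, Snora21 and Snord58b differed by 1.57, 0.67 and 1.28 on number 1, beside 1.55, 0.82 and 1.21 for the probes used. The 2 probes of Snora30 held identical values on all 12 arrays, and those of Snord118 were equal but for the last digit. Their equal differences, 0.89 and 1.08, are therefore no second measurement.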
